A study of Mus musculus with 102 samples.

Results

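Brain transcriptomes of young adult mice were compared between 3 months of age and the ages that follow it, 5 and 8 months pooled. The comparison used every brain library of those 3 ages, 24 of the 102 samples in the series, and these counted as 22 samples after averaging. All animals were male mice titled BL6J (C57BL/6J, the standard inbred laboratory strain) with the genotype label WT, and no treatment or engineered allele was named for any of them. The titles also carry an ET code that varies among animals, which the labels do not explain and which was not used. The 3-month group held 7 samples, the 5-month group 8 and the 8-month group 7, so 15 samples of 5 and 8 months stood against 7 of 3 months. Within the 5-month group replicates 1 and 6, and within the 8-month group replicates 4 and 7, were closer to each other than independently drawn reads would be: they differed by less than the sampling noise (variance ratios 0.557 and 0.625, against 1.39 or more in every other pair of brain libraries). Each of these pairs was averaged and counted as 1 sample. The wider series is a study of ageing and of longevity regulators in mouse brain and spleen, and the same animals' spleens serve here as a second tissue.

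A mouse is sexually mature by 3 months, but its brain is still finishing development: myelin is being added, inhibitory circuits and the matrix nets around interneurons are settling, and the birth of neurons in the hippocampus and olfactory system is declining. Immediate early genes are the group read most often as a trace of recent neuronal firing. Calcium entry and growth-factor signals switch them on within minutes, without new protein synthesis, through CREB bound at cAMP response elements and through SRF bound at CArG boxes, and their products include the AP-1, EGR and NR4A transcription factors and the synaptic protein Arc, which then drive a later set of effector genes.

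Values are read counts that the authors divided by a size factor for each library, called normalized read counts below. A log2 change is the level at 5 and 8 months minus that at 3 months on the log2(value + 1) scale, which understates the change of low genes, and carries its standard error (SE). The 24 libraries held 4212565 to 11223606 reads in genes, with medians of 8002219 at 3 months, 6866377 at 5 months and 8303642.5 at 8 months. Neuronal (Snap25, Syt1), astrocyte (Slc1a2, Aqp4), oligodendrocyte (Mbp) and microglial (Cx3cr1, Csf1r) markers were read in all 22 samples. Gfap, P2ry12, Pcp2 and Alas2 were listed at 0 in all 22, as were the mitochondrially encoded genes, so a listed 0 in this table says nothing of expression. The cerebellar gene Gabra6 reached at most 12.2 and was at 0 in 11 samples. In 3 samples more genes lay over 2-fold from the median of the 22 than elsewhere: 339 of 12861 genes in replicate 1 at 3 months, 344 in replicate 2 and 275 in replicate 4 at 5 months, against 11 to 133 in the other 19. These 3 held 4212565 (the fewest of all), 4809641 and 6274941 reads. Replicate 3 at 5 months, with 4829270 reads, had 133 such genes, and replicate 1 at 8 months, with 4693546, had 95. The part of depth in these counts was not tested. Several list results are given with and without replicate 1 of 3 months or all 3 samples that stood apart, and the rest with all samples. Values of single genes are given with all samples, and for some the range over settings is given near the end.

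No gene passed the test between 3 months and the 2 later ages. Of 15546 genes tested with limma, 0 reached an adjusted p under 0.05, and the smallest adjusted p was 0.585. At an unadjusted p under 0.05 there were 597 genes (3.84% of those tested), 241 lower (1.55%) and 356 higher (2.29%) at 5 and 8 months. The counting models also called 0 genes, edgeR with 486 and DESeq2 with 511 at an unadjusted p under 0.05. A limma fit on the 22 samples alone called 0 with 500. The smallest adjusted p was 0.426 by edgeR, 0.102 by DESeq2 and 0.0888 by limma on the 22 samples alone. Without replicate 1 of 3 months it was 0.9999 by limma. In 0 of the 15546 genes (0%) were all samples of 3 months on one side of all 15 samples of 5 and 8 months.

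The width of the intervals sets what such a result can say. The median half-width of the 95% interval was 0.23 log2 units, a 1.18-fold change. For 14906 genes (95.9%) the whole interval lay inside a 2-fold change either way, and for 80.8% inside 1.5-fold. The middle 95% of the estimates ran from -0.35 to 0.38, with a median of -0.0022. Estimates beyond 2-fold were seen for 8 genes, of which 1 had a mean of 50 or more in either group. In the plot of all tested genes the members of the immediate early list lie along the lower edge of the cloud at medium and high levels.

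**Figure D1:**
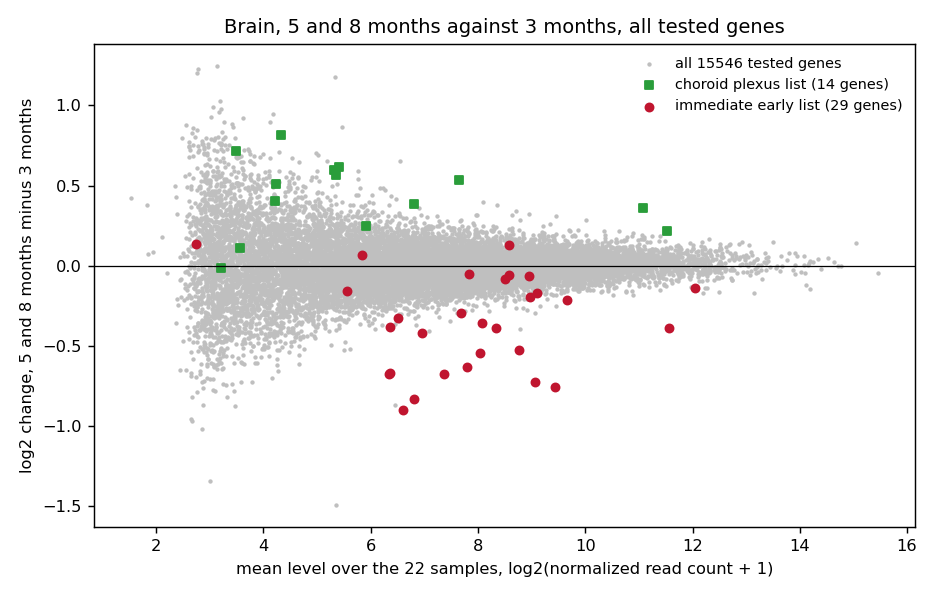
Log2 change (5 and 8 months minus 3 months) against mean level over the 22 samples for each of 15546 tested genes (grey), with the 29 immediate early genes in red and the 14 choroid plexus genes in green. Most red points lie below 0 and nearly all green points above it, and 0 genes passed the adjusted threshold.

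Immediate early genes were frequent among the genes with the smallest p-values, at lower levels in the samples of 5 and 8 months. Of the 10 genes with the smallest p, 4 were members of the immediate early list, and of the 20 smallest, 7. The list has 30 names, one of which (Cyr61) is the older symbol of Ccn1, so all 29 genes were tested. At an unadjusted p under 0.05, 17 of the 29 were lower and 0 higher, against 1.55% and 2.29% of all tested genes, and 0 were called after adjustment. The list was chosen with earlier results of these data known. Its members share inducing signals and are not independent observations, so these counts describe the list and are not a test of it. The median log2 change of the 29 was -0.36, with a range of -0.90 to 0.13 and 26 of 29 estimates negative, beside a median of -0.0022 over all tested genes. In bulk tissue, fewer cells of a type and less RNA per cell cannot be told apart.

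Among the AP-1 transcription factor subunits, Fos had the smallest p. Its normalized read count was 647 to 1252 at 3 months (median 940) and 309 to 950 at 5 and 8 months (median 543). All 7 samples of 3 months lay above the later median and 11 of the 15 later samples lay below every 3-month sample, while the other 4 lay within the 3-month range. The log2 change was -0.76 (SE 0.18, adjusted p = 0.585 by limma). Junb, a partner of Fos in AP-1, stood at 158 to 344 at 3 months (median 197) and at 95.3 to 232 afterwards (median 127). Again 11 of the 15 later samples were below the lowest 3-month sample, and 2 samples of 3 months were above every later one, a log2 change of -0.68 (SE 0.17, adjusted p = 0.585 by limma). Fosb, whose truncated product accumulates with repeated stimulation, stood at 281 to 446 (median 394) and 199 to 419 (median 296). Its log2 change was -0.39 (SE 0.13, adjusted p = 0.999 by limma). The other AP-1 members were close to level: Jun at a log2 change of -0.06 (95% interval -0.31 to 0.20) and Fosl2 at -0.06 (-0.32 to 0.19).

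Among the zinc-finger and nuclear-receptor factors the estimates were again uneven. Egr2, an EGR factor best known from myelinating Schwann cells and also induced in neurons, had the most negative estimate of the list. It stood at 51.8 to 255 at 3 months (median 149) and at 40.9 to 109 later (median 72.4), a log2 change of -0.90 (SE 0.27, adjusted p = 0.999 by limma). Here 5 of the 7 samples of 3 months exceeded every later sample, and the lowest 3-month sample lay inside the later range. Egr1, the EGR factor most often used as a marker of active neurons, stood at 2591 to 5039 (median 3434) and 2004 to 3672 (median 2712), a log2 change of -0.39 (SE 0.14, adjusted p = 0.999 by limma). The estimates for Egr3 and Egr4 were -0.36 (SE 0.19) and -0.32 (SE 0.15). Of the NR4A orphan receptors, Nr4a1 stood at 257 to 782 (median 537) and 222 to 623 (median 360), a log2 change of -0.53 (SE 0.19), while Nr4a2 was at -0.19 (SE 0.08) and Nr4a3 at 0.13 (SE 0.14). Npas4, a factor induced by calcium entry in neurons and little by growth factors, stood at 67.1 to 176 (median 99.0) and 23.3 to 111 (median 67.7), a log2 change of -0.68 (SE 0.23, adjusted p = 0.999 by limma).

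Most of the other early genes had estimates in the same direction. Arc, which is carried to active dendrites and promotes removal of AMPA receptors, stood at 380 to 973 at 3 months (median 772) and 269.2 to 769 later (median 378). In Arc 4 of the 7 samples of 3 months were above all later ones and 8 of the 15 later ones below all of 3 months, with a log2 change of -0.73 (SE 0.22, adjusted p = 0.999 by limma). Btg2, a regulator of proliferation and mRNA decay, had the second smallest p of all tested genes. It stood at 208 to 460 (median 271.3) and 131 to 314 (median 182), a log2 change of -0.63 (SE 0.15, adjusted p = 0.585 by limma), and 11 of the 15 later samples were below every 3-month sample. Ccn1, a secreted matrix protein, stood at 76.4 to 272 (median 143) and 42.97 to 181 (median 80.8), a log2 change of -0.83 (SE 0.23, adjusted p = 0.999 by limma). Ier2 stood at 73.8 to 175 (median 92.2) and 32.9 to 95.2 (median 70.1), a log2 change of -0.67 (SE 0.20, adjusted p = 0.999 by limma). In both of these genes the groups overlapped, with 6 later samples below all of 3 months for Ccn1 and 8 for Ier2. The phosphatase Dusp1, which switches off MAP kinases, was at -0.54 (SE 0.18), the small GTPase Arl4d at -0.42 (SE 0.14) and the stress-response gene Gadd45b at -0.38 (SE 0.13). For Dusp1, 12 of the 15 later samples were below every 3-month sample. Per1, a clock gene, was at -0.05 (SE 0.15) and Klf4 at 0.07 (SE 0.18). Homer1, of which only the short form is an early transcript and which is counted here as a whole gene, was at -0.14 (SE 0.11).

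**Figure D2:**
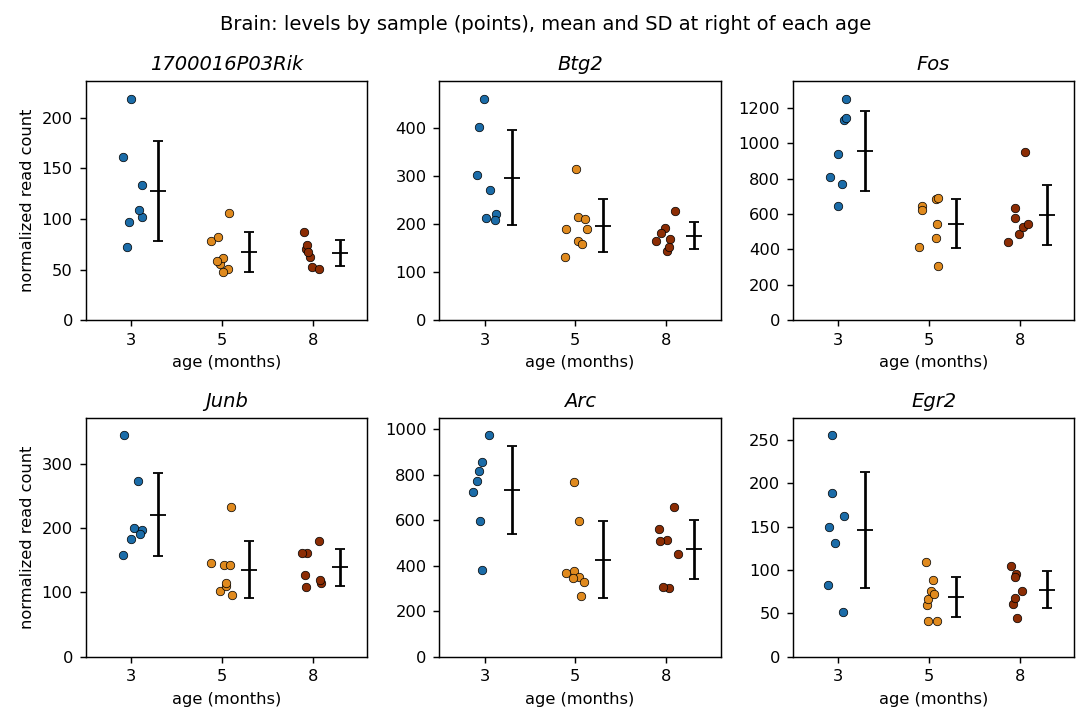
Normalized read counts of 6 genes in each brain sample (points) at 3, 5 and 8 months, with the mean and SD to the right of each age (n = 7, 8 and 7). The highest values of each gene belong to 3-month samples, and in every panel some 5-month or 8-month samples lie within the 3-month range.

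**Figure D3:**
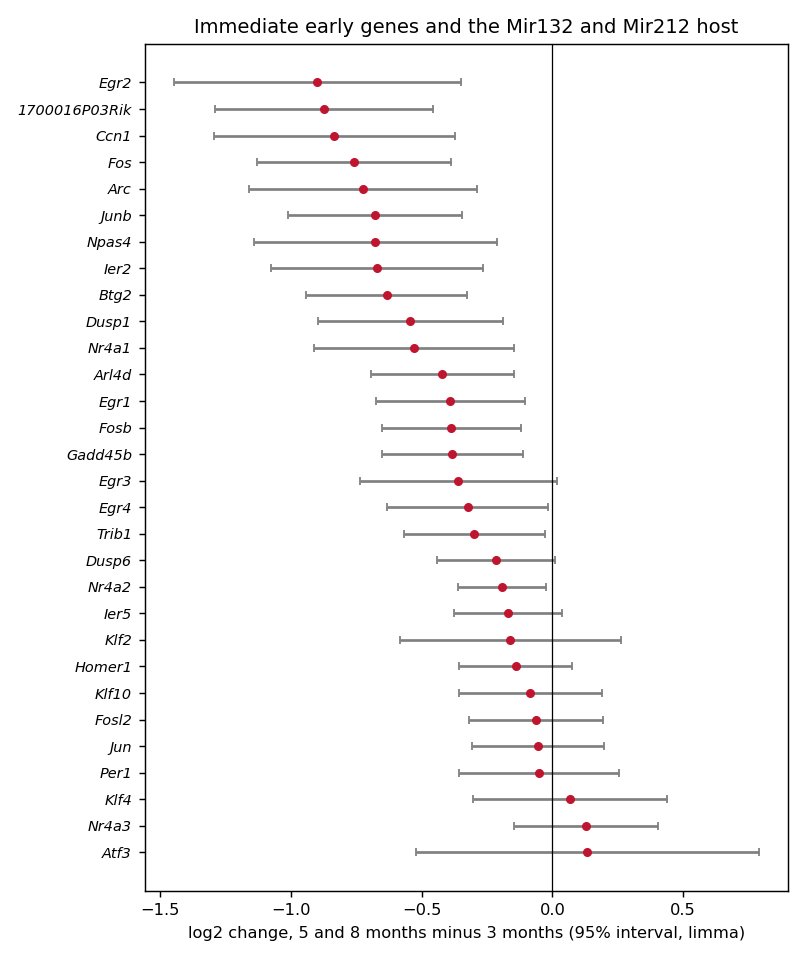
Log2 change (5 and 8 months minus 3 months) with its 95% interval from limma for the 29 immediate early genes and the Mir132 and Mir212 host gene 1700016P03Rik. Estimates run from -0.90 for Egr2 to 0.13, and the interval excludes 0 for the host gene and for the 17 early genes with an unadjusted p under 0.05.

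The positions of the genes with the smallest p (GENCODE M21 on GRCm38, 1-based) were chromosome 12 from 85473890 to 85477273 on the plus strand for Fos, chromosome 8 from 84974484 to 84978718 on the minus strand for Junb, chromosome 1 from 134075170 to 134079120 on the minus strand for Btg2, and chromosome 15 from 74669083 to 74672570 on the minus strand for Arc. All are protein-coding.

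Promoters of the early genes were read because most members had estimates in the same direction and CREB sites are their best-known shared input. RefSeq promoters (GRCm38.p6) were present for 23 of the 29 genes, and the 250 bases before each start were searched on both strands. Egr1, Egr3, Arc, Ier2, Klf10 and Trib1 had no entry. The full cAMP response element TGACGTCA was found in 3 of the 23 (Arl4d, Btg2 and Dusp1) and in 508 of all 32851 promoters (1.55%). Its core TGACG, read on either strand and so also inside each full element, was found in 18 of the 23 and in 17.8% of all promoters. The CArG box was found in 1 of the 23 (Egr2) and in 1.47% of all. The early counts are of genes with the motif in any of their promoters, while the shares are of single promoters, so the units differ. Sites more than 250 bases before a start were not searched, so a gene without a site here may hold one farther away. Nr4a3, Klf4 and Atf3, whose estimates were above 0, hold the core as well. The 3 promoters with a full element and those of Fos, Junb and Nr4a1 are shown, 5′ to 3′ on the strand of the gene, with the element or its core, or the reverse complement of the core, in capitals.
Btg2, chr1:134079156-134079405, minus strand: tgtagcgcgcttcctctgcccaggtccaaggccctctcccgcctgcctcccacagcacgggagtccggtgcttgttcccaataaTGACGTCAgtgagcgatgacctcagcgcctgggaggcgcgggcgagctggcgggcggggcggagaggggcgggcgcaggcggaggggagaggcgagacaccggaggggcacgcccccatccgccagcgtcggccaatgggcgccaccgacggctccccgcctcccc
Arl4d, chr11:101665291-101665540, plus strand: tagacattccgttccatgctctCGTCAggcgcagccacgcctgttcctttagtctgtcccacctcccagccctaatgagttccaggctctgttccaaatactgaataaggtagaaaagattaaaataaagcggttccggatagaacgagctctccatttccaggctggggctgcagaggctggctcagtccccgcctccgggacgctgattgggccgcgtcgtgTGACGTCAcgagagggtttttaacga
Dusp1, chr17:26508473-26508722, minus strand: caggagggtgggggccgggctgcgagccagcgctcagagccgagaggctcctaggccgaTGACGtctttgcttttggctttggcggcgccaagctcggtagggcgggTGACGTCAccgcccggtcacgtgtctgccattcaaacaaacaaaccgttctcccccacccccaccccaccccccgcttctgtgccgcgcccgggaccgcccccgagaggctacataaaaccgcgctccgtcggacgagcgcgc
Fos, chr12:85473640-85473889, plus strand: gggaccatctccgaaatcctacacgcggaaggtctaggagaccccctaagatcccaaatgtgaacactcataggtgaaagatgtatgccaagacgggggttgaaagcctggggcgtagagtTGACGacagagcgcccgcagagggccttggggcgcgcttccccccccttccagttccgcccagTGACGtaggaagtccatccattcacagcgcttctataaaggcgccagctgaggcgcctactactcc
Junb, chr8:84978749-84978998, minus strand: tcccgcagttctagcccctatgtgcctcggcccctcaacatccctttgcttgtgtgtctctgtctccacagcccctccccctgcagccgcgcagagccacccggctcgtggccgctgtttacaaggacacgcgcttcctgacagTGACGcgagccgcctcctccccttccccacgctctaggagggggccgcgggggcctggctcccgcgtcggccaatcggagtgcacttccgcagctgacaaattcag
Nr4a1, chr15:101266596-101266845, plus strand: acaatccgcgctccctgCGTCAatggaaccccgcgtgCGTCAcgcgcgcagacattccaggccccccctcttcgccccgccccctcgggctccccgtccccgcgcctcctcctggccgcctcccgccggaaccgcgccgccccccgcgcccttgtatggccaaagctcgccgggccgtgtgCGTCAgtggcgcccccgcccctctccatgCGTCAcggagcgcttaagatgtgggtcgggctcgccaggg

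The gene with the smallest p of all 15546 was 1700016P03Rik, a noncoding transcript on chromosome 11 from 75172560 to 75177633, plus strand. It was outside the rule for naming genes, which leaves out names of this kind, and was chosen after its values were seen. The hairpins of Mir212 (75173388 to 75173478) and Mir132 (75173682 to 75173747) lie inside it on the same strand. This locus is a known CREB target in neurons, and miR-132 is known as an activity-induced regulator of dendrite growth. Both mature miRNAs carry the same seed, bases 2 to 8, shown in capitals because it sets which messages they can pair with.
mmu-miR-132-3p: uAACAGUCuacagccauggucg
mmu-miR-212-3p: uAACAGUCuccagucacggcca
The host transcript stood at 71.9 to 219 normalized reads at 3 months (median 109) and at 47.6 to 106 at 5 and 8 months (median 62.3). All 7 samples of 3 months were above the later median, 4 of them above every later sample, and 10 of the 15 later samples were below every 3-month sample. The log2 change was -0.87 (SE 0.21, adjusted p = 0.585 by limma), with -0.87 at 5 months and -0.87 at 8 months taken alone. These are reads of the host gene, and mature miRNA was not measured.

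The early list was as low at 5 months as at 8. Against 3 months, the early list had a median log2 change of -0.41 at 5 months, with 17 of 29 lower at an unadjusted p under 0.05 (1.51% of all genes), and of -0.25 at 8 months, with 12 of 29 lower (1.51%). These comparisons share the 3-month samples, and neither called a gene (495 and 558 genes at an unadjusted p under 0.05). Between 8 and 5 months, where 0 genes were called and 365 had an unadjusted p under 0.05, the median of the list was 0.08, with 0 lower (1.11% of all genes) and 1 higher (1.24%) of 29. The mean log2 level of the list in a sample was 8.06 ± 0.14 at 3 months (SD, n = 7, from 7.84 to 8.21), 7.66 ± 0.19 at 5 months (n = 8) and 7.74 ± 0.21 at 8 months (n = 7). All 7 of the 3-month samples were above the median of the later group and 4 above its highest sample, while 11 of the 15 later samples were below the lowest 3-month sample. The overlap came from a few later animals, with replicate 2 at 8 months the highest of them at 8.06.

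When each of the 22 samples was left out in turn, the number of early genes lower at an unadjusted p under 0.05 stayed between 15 and 19. Replicate 1 of 3 months was the highest of the 22 samples in 8 of the 29 genes and replicate 3 in 7, and replicate 9 of 5 months was the lowest in 10. The genes highest in replicate 1 included Btg2, Fos, Junb and Egr2, and outside the list 1700016P03Rik and Cd302. Without replicate 1 of 3 months the list had 17 genes lower at an unadjusted p under 0.05, and without the 3 samples that stood apart 16, with medians of -0.33 and -0.34. With read depth as a covariate 19 were lower, and without the libraries of under 5000000 reads 15. The share of reads in Malat1, a nuclear RNA, was 0.217 to 0.317% at 3 months, 0.207 to 0.291% at 5 and 0.190 to 0.268% at 8 months, and its part in the result was not tested. The hour and manner of death are not given in the sources used here. Clock genes (0 of 15 at an unadjusted p under 0.05, median -0.03) and genes induced by glucocorticoids (0 of 14, median 0.02) were measured beside the early genes.

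Genes of the later wave of activity-induced transcription had estimates nearer 0 over the same ages. Of 15 tested members, among them Nptx2, Vgf, Scg2 and Sst, 0 had an unadjusted p under 0.05, and the median log2 change was -0.02 with a range of -0.16 to 0.09. Without replicate 1 of 3 months the median was -0.045, and without the 3 samples that stood apart it was -0.10, with 0 of 15 at that level in both. The interval of each lay inside a 2-fold change, as did those of 22 of the 29 early genes. Scg2, which encodes a neuropeptide precursor, stood at 3415 to 5503 (median 4107) and 3427 to 5548 (median 4354), a log2 change of 0.09 (SE 0.09). Sst, the interneuron peptide somatostatin, stood at 632 to 1149 (median 1090) and 635 to 1333 (median 818), a log2 change of -0.11 (SE 0.11). In both genes the ranges overlapped over most of their width.

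Levels after 8 months are given beside these, in comparisons that share the 15 samples of 5 and 8 months. The early list had median log2 changes of 0.03 at 14 months, 0.00 at 20 and -0.19 at 26 against 5 and 8 months, with 0 members called at any of the 3 ages. Genes called in those comparisons numbered 0 (605 at an unadjusted p under 0.05), 25 (0.161%) and 67 (0.431%). The late activity list, by contrast, had a median of -0.17 at 20 months with 8 of 15 lower at an unadjusted p under 0.05 (4.58% of all genes), and 0 of them called. Its mean log2 level was 9.20 ± 0.11 at 3 months (SD, n = 7), 9.17 ± 0.16 at 5 and 8 months (n = 15) and 8.96 ± 0.11 at 20 months (n = 7). The plot of list means shows the early list with its highest mean at 3 months, and the late list with its lowest at 20 months.

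**Figure D4:**
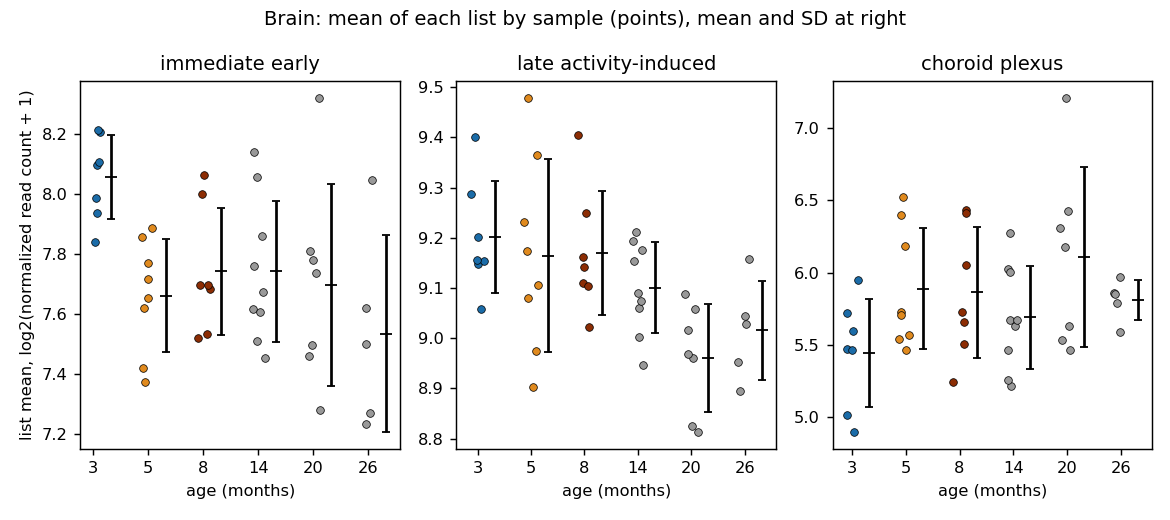
Mean log2(normalized read count + 1) over the tested members of 3 lists in each brain sample (points) at the 6 ages, with the mean and SD to the right of each age. The early list averages 8.06 at 3 months and 7.66 at 5 months, and the late list 9.20 and 9.16 at the same ages.

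In the spleens of the same animals, a table normalized separately, the early list showed no such shift. Of 28 members tested there, 0 were lower and 1 higher at an unadjusted p under 0.05 (1.03% and 1.19% of 16243 genes), and the median log2 change was -0.08. Btg2 in spleen stood at 1141 ± 202 (SD, n = 7) at 3 months and 1082 ± 244 (n = 17) at 5 and 8 months. Junb stood at 221 ± 60.5 and 205 ± 51.0. With limma 0 spleen genes were called (360 at an unadjusted p under 0.05), and edgeR called 3, the immunoglobulin variable segments Igkv4-61, Igkv8-27 and Ighv1-78. Whether the brain and spleen changes differ was not tested.

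Outside the early list the named gene with a lower level was Cd302, a lectin receptor of macrophages and other cells, at 82.0 to 149 (median 97.7) and 65.1 to 99.6 (median 83.0), a log2 change of -0.35 (SE 0.11, adjusted p = 0.999 by limma). The 8 genes with the smallest p among those with higher estimates lay between 0.22 and 0.44, all with a limma adjusted p of 0.999. Abca8a, a lipid transporter of the ABC family found in oligodendrocytes, stood at 158 to 266 (median 213) and 200 to 365 (median 274), a log2 change of 0.31 (SE 0.09). All 3-month samples of Abca8a were below the later median, with overlapping ranges. Its mean at later ages was 303 at 14 months, 346 at 20 and 401 at 26, and at 26 months it rose against 5 and 8 months by a log2 change of 0.60 (adjusted p = 0.000625 by limma). Abca8a belongs to a cluster of similar ABC genes that may share reads. Rcsd1, an actin-capping regulator, stood at 27.8 to 55.2 (median 45.03) and 39.4 to 78.6 (median 59.8), a log2 change of 0.44 (SE 0.14). Wasf2, which drives branched actin assembly, was at 0.24 (SE 0.08), the axon guidance gene Sema5a at 0.26 (SE 0.09), and Mettl4, an RNA and DNA adenine methyltransferase, at 0.43 (SE 0.12). Pcnx, Nt5dc3 and St5 were at 0.22, 0.22 and 0.25. At 14 months none of these 8 differed from 5 and 8 months at an adjusted p under 0.05.

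Choroid plexus genes, which mark the epithelium that secretes cerebrospinal fluid, had the highest median of any list, and their count depended on single libraries. Of 14 tested, 6 were higher at an unadjusted p under 0.05 (background 2.29%), 0 were called, and the median log2 change was 0.46. Kl, the co-receptor Klotho, stood at 78.1 to 215 (median 179) and 124 to 349 (median 198), a log2 change of 0.54 (SE 0.21, adjusted p = 0.999 by limma). Cldn2, the pore-forming tight-junction protein of this epithelium, stood at 3.47 to 18.1 (median 13.4) and 6.67 to 37.8 (median 22.1), a log2 change of 0.81 (SE 0.29). The transthyretin gene Ttr, the most abundant transcript of this epithelium, stood at 1103 to 2403 at 3 months, 1510 to 5282 at 5 and 901 to 3613 at 8 months, a log2 change of 0.36. The ranges overlapped widely in all of these genes. The mean of the list was lowest in replicate 1 of 3 months (4.89), and without that sample 2 of 14 were higher at an unadjusted p under 0.05. Without the 3 samples that stood apart 1 was, and without libraries of under 5000000 reads 0 were, with medians of 0.37, 0.29 and 0.23. The summed level of the 14 genes ran from 3685 to 5815 at 3 months, 4636 to 10265 at 5 and 3621 to 8441 at 8 months, so it varied more within an age than between ages. Folr1, another marker of this epithelium, reached at most 9.44 and was at 0 in 2 samples. The part of these marker levels in the result was not tested.

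Hypothalamic and pituitary genes behaved alike and were noisier. All 11 tested had estimates above 0, with a median of 0.40, but 0 of 11 had an unadjusted p under 0.05, and only 3 of the intervals lay inside a 2-fold change. Pmch, the melanin-concentrating hormone precursor of the lateral hypothalamus, stood at 23.0 to 122 (median 67.8) and 24.8 to 233 (median 102), a log2 change of 0.65 (SE 0.36). Replicate 1 of 3 months had the lowest list mean of its age here too, and without it the median was 0.29. The pituitary hormone gene Gh ran from 2.01 to 39.9 at 3 months and from 1.67 to 261 at 5 months. Striatal genes (0 of 14, median 0.06) and cerebellar genes (0 of 10, median -0.04) were closer to 0.

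Vessel, matrix and immune genes held a few members on the higher side. In the endothelial and pericyte list 3 of 21 were higher at an unadjusted p under 0.05 (2.29% of all genes). Vwf, the von Willebrand factor of endothelium, stood at 38.2 to 61.8 (median 56.5) and 46.0 to 145 (median 73.5), a log2 change of 0.48 (SE 0.18, adjusted p = 0.999 by limma). Flt1, a VEGF receptor, was at 0.20 (SE 0.08) and Abcc9, of the pericyte potassium channel, at 0.31 (SE 0.13), while Cldn5, the main tight-junction protein of brain endothelium, was at -0.19 (SE 0.10). In the fibroblast matrix list 3 of 24 were higher, namely Igf2, Aebp1 and Fbn1, each at 0.38. In complement 3 of 15 were higher: C3ar1 (0.48, SE 0.19), C1ra (0.64, SE 0.27) and C4b (0.42, SE 0.18). C4b, which shares nearly all its sequence with C4a, stood at 56.0 to 103 (median 64.2) and 55.7 to 216 (median 93.1), so the lower ends coincided. Without replicate 1 of 3 months 1 of the 15 complement genes was higher at an unadjusted p under 0.05, and 2 each of the vessel and matrix genes. Of 11 class I MHC presentation genes 1 was higher (H2-Q4, at means of 8.59 and 11.9), and 0 of 15 homeostatic microglial genes were.

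Genes of the maturation programmes themselves had pooled estimates near 0. The intervals bound how far the pooled level of 5 and 8 months could have moved, and not either age alone. Of 24 myelin and oligodendrocyte genes 0 had an unadjusted p under 0.05, the estimates ran from -0.12 to 0.07, and all 24 intervals lay inside a 2-fold change. Against 3 months the median of the myelin list was -0.09 at 5 months, with 2 of 24 lower at an unadjusted p under 0.05 (1.51% of all genes). At 8 months it was 0.07, with 0 of 24 at that level. Between 5 and 8 months the median of the myelin list was 0.13, with 5 of 24 higher at an unadjusted p under 0.05 (1.24% of all genes) and 0 called. Cholesterol synthesis, which supplies myelin growth, had 0 of 20 genes at that level and estimates of -0.18 to 0.20. In the precursor and newly formed oligodendrocyte list 1 of 16 was higher (Matn4, 0.27, SE 0.10), beside 2.29% of all genes.

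The neuronal lists were as level. In the newborn neuron list 0 of 22 were lower and 1 higher at an unadjusted p under 0.05 (1.55% and 2.29% of all genes). The pooled median was -0.04, with 0.01 at 5 months and -0.14 at 8 months taken alone against 3 months. All 22 pooled intervals lay inside a 2-fold change. The higher member was Dpysl5, a growth-cone protein of the collapsin response family, at 330 to 405 (median 359) and 344 to 474 (median 419), a log2 change of 0.17 (SE 0.06, adjusted p = 0.999 by limma). Of 19 cell cycle genes 0 were at that level. Perineuronal net genes had 0 of 12, with the link protein Hapln1 at -0.13 (95% interval -0.29 to 0.03). Of 14 GABA receptor subunits 1 was higher (Gabrb2, 0.18, SE 0.09), beside 2.29% of all genes, and the range was -0.04 to 0.18. Without replicate 1 of 3 months, and without the 3 samples that stood apart, 0 of these subunits were higher at that level. Every interval of these subunits lay inside a 2-fold change.

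Ribosomal protein genes shared a direction at a small size. All 30 had estimates below 0, as had 50.9% of all tested genes, with a median of -0.12 and a range of -0.25 to -0.03. At an unadjusted p under 0.05, 2 of 30 (Rps3 and Rpl13) were lower, against 1.55% of all genes. Without replicate 1 of 3 months, and without the 3 samples that stood apart, 1 of 30 was lower at that level. Rps3 stood at 1294 to 2015 (median 1558) and 1181 to 1700 (median 1393). The list's mean log2 level was 8.45 ± 0.21 (SD, n = 7) at 3 months and 8.32 ± 0.15 (n = 15) at 5 and 8 months, a difference smaller than the SD at 3 months. Ribosomal protein genes have many processed pseudogenes that may share their reads. The plot of all lists places the median of the early genes at the low end and those of the choroid plexus and pituitary lists at the high end.

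**Figure D5:**
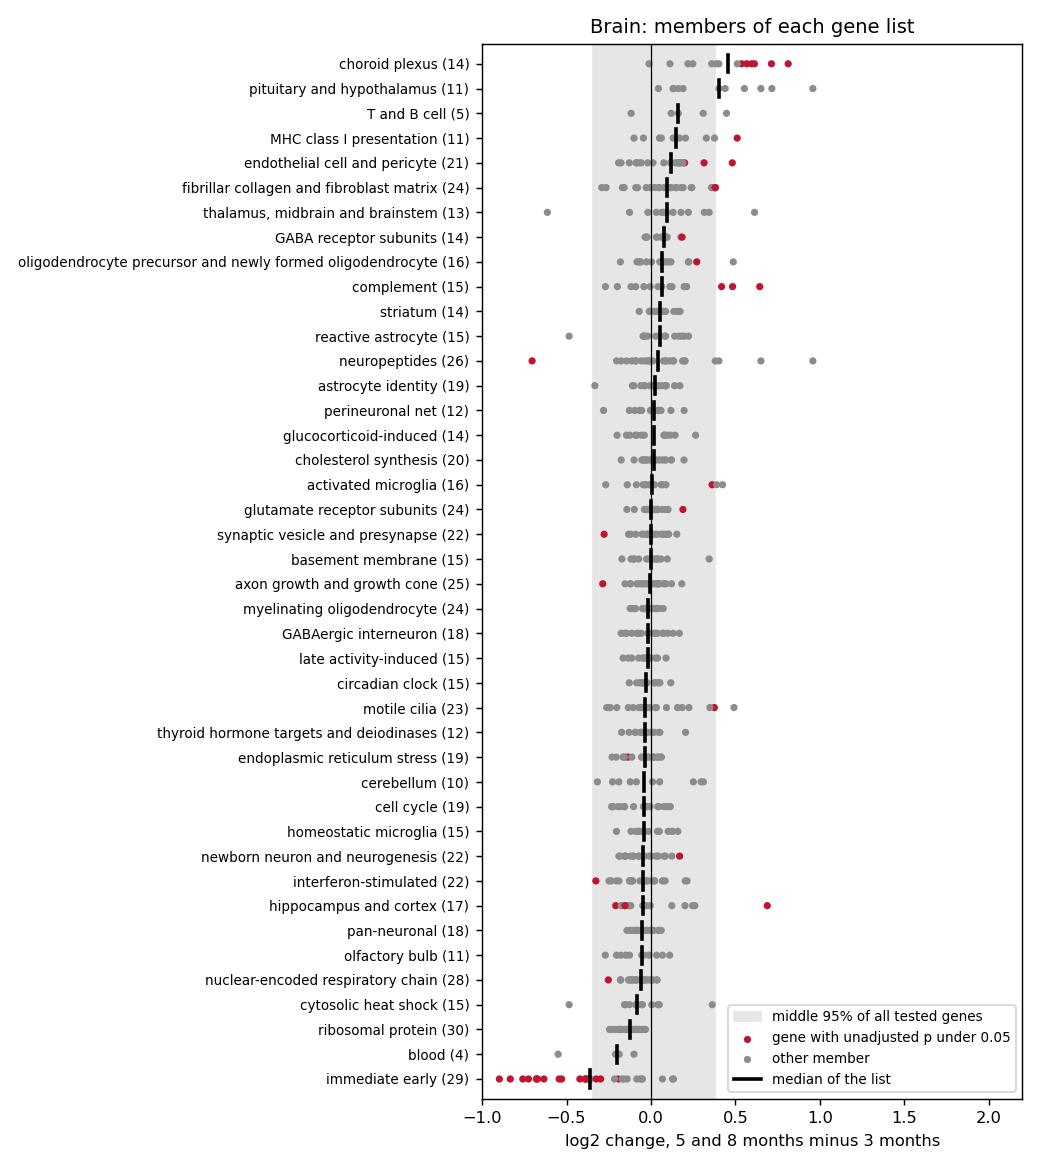
Log2 change (5 and 8 months minus 3 months) of each tested member of 42 gene lists, ordered by median (black bar), with genes of unadjusted p under 0.05 in red and the span from -0.35 to 0.38, the middle 95% of all tested genes, shaded. The early list has its median at -0.36 and the choroid plexus list at 0.46.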

How the data were processed

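Per the labels, RNA came from frozen tissue by TRI-Reagent, and 1 µg went into each TruSeq library. Tools listed in the submitters' processing notes are HISAT2 2.1.0, SAMtools, cutadapt, bcl2fastq 2.20, DESeq2 and R 3.5.1, and the build is GRCm38. The read counter and gene annotation are not given in the sources used here. The deposited signal values are read counts scaled by the authors with a size factor for each library: whole reads were recovered, within 0.01 of a read, for 100% of values.

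Genes with a value of 10 or more in at least 5 of 43 brain samples (45 libraries, 2 pairs averaged) were tested with limma 3.58.1 (R 4.3.3, mean-variance trend, 2-sided) on log2(value + 1). One fit held groups of 3, 5 with 8, 14, 20 and 26 months, and a further fit held 5 and 8 months apart. P-values were adjusted by Benjamini-Hochberg across the tested genes of a contrast, with a call under 0.05. edgeR 4.0.16 (quasi-likelihood) and DESeq2 1.42.0 ran on the recovered reads as alternatives. Other alternatives changed the pseudocount, filter, scaling, averaging and samples. The fitting scripts were tested on simulated data.

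No set test was run: lists are described by counts and medians. The members and 41 lists were chosen with earlier results of these data known, and a motile cilia list and the removal of 3 samples were added after seeing the data. Where under 8 genes of a direction were called, the 8 with the smallest p were named if either group averaged 50 or more (without predicted, immunoglobulin, pseudogene and sex-linked genes), with all early genes and up to 6 members per list. Markers of cell types are named as checks, and a few named members are not reported here. Each title carries its own animal number, but nothing says how litters, cages or days were spread, so p-values measure the spread between these samples. Figures used matplotlib 3.10.9 under Python 3.11.15.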

Additional observations from a re-analysis of the deposited data

Results flagged for a closer look

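In 117 groups of 7 or 8 samples (39 genes at 3, 5 and 8 months) the highest or lowest value was compared with its nearest neighbour, and 10 groups had a sample that stood off by Dixon's 95% limit. The limit gives about 1 in 20 groups for independent values with a normal spread. These were unlogged values of genes measured in the same samples, so that rate need not hold here. All 10 were high values. At 8 months replicate 5 was high in Fos (950, next 631), Ccn1 (181, next 92.5) and Gadd45b (95.8, next 72.8), and replicate 2 in Klf4 (90.2, next 61.4). At 5 months replicate 2 was high in Btg2 (314, next 214), Klf4 (117, next 62.5) and Nt5dc3 (1196, next 981), replicate 8 in Junb (232, next 145) and replicate 4 in Ier5 (725, next 536). At 3 months replicate 3 was high in Per1 (435).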

How the results depend on the processing

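The count of 0 called genes held in every setting run for 5 and 8 months against 3 months in brain, leaving out each sample included (0 to 0). The early genes lower at an unadjusted p under 0.05 numbered 15 to 19 of 29 in all settings. The signs of Btg2, Fos, Junb, Ccn1, Arc, Ier2, Egr2 and 1700016P03Rik did not turn in any of 37. Their log2 changes ran from -0.99 to -0.70 for 1700016P03Rik, -0.71 to -0.52 for Btg2 and -0.85 to -0.67 for Fos. Junb ran from -0.75 to -0.55, Egr2 from -1.12 to -0.71, Cd302 from -0.41 to -0.23 and Mettl4 from 0.30 to 0.52. In limma on the 22 samples alone Fos and 1700016P03Rik had an adjusted p of 0.0888. The choroid plexus count of 6 did not hold: 3 with a minimum value of 50, 2 with edgeR, 3 with DESeq2, 0 without libraries of under 5000000 reads, 2 to 9 when each sample was left out in turn (2 without replicate 1 and 3 without replicate 3 of 3 months) and 1 without the 3 samples that stood apart. In spleen edgeR called 3 genes where limma called 0. Genes with an unadjusted p under 0.05 numbered 143 lower and 201 higher without replicate 1 of 3 months, 159 and 213 without the 3 samples, 160 and 224 with a minimum value of 50, and 683 lower with no filter. Estimates near 0 turned sign: Fosl2 to 0.024 and Atf3 to -0.0033 without libraries of under 5000000 reads, Atf3 to -0.039 and -0.053 without replicates 1 and 4 of 3 months, Per1 to 0.11 without replicate 3 of 3 months, and Klf4 to -0.031 and -0.0098 without replicate 7 of 3 months and replicate 2 of 5 months. With each sample left out in turn these ran from -0.053 to 0.32 for Atf3, -0.12 to 0.11 for Per1 and -0.031 to 0.18 for Klf4. The causes were not tested. No paired analysis was possible because the replicate numbers were given in accession order and pair no samples. Depth limits genes with few reads, where intervals reach past 2-fold.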

Other observations

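Single members of other lists had an unadjusted p under 0.05, as did 3.84% of all tested genes (1.55% lower and 2.29% higher). All of these members had a limma adjusted p of 0.999, and a single member in a list of this size is close to that share. Cort, which encodes cortistatin, a peptide of cortical interneurons, stood at 14.2 to 30.1 normalized reads at 3 months (median 22.1) and 6.44 to 30.2 at 5 and 8 months (median 12.8), a log2 change of -0.70 (SE 0.26), and it was the only neuropeptide of 26 tested with an unadjusted p under 0.05. In the hippocampus and cortex list 2 of 17 were lower and 1 higher at an unadjusted p under 0.05, with 12 of 17 estimates negative and a median of -0.05. The higher member was Dsp, a desmosomal gene of dentate granule cells (0.69, SE 0.24), and the lower ones included the pentraxin receptor gene Nptxr (-0.15, SE 0.07). Of 22 presynaptic genes the exception was the SNARE gene Stx1a (-0.28, SE 0.12), and of 25 axon growth genes Tmsb10 (-0.29, SE 0.13). Without replicate 1 of 3 months 0 of the 22 and 1 of the 25 were lower at that level. Without the 3 samples that stood apart 0 were lower in either list. Gpnmb, a gene of lipid-laden microglia, stood at means of 28.0 and 35.8 (log2 0.36, SE 0.15). Motile cilia genes, a list added after seeing the data, had 1 of 23 higher at an unadjusted p under 0.05 and a median of -0.03. Without replicate 1 of 3 months, and without the 3 samples that stood apart, 0 of the 23 were higher.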
